A study of Mus musculus with 3 samples.

Results

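The Notch genes described here are 10 of the 32285 mouse genes in the count tables. They are the receptors Notch1, Notch2, Notch3 and Notch4, the ligands Dll1, Dll4, Jag1 and Jag2, and the target genes Hey1 and Heyl, taken by gene symbol, and each symbol matched 1 row. The study profiled single cells of the CD45- thymic stroma of untreated C57BL/6 mice at 20 months of age, with 1 library each of female Foxn1Lin, male Foxn1Lin and wild-type male mice. Foxn1Lin is a lineage trace in which a Cre recombinase driven by Foxn1, the master regulator of thymic epithelium, switches on a reporter in cells that have expressed Foxn1 and in their descendants. The protocol pools 10 to 15 thymi, so a library averages over mice and no group has a replicate library. All 3 groups are old, and a young group was not analysed here.

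Notch receptors are cleaved when a ligand on a neighboring cell pulls on them, and their intracellular part then joins the DNA-binding protein RBPJ to switch on genes of the Hes and Hey families. In the thymus, Dll4 on thymic epithelial cells commits incoming progenitors to the T cell lineage through Notch1. In blood vessels, Dll4, Jag1, Notch1 and Notch4 act in arterial fate and sprouting, and Notch3 maintains the smooth muscle cells and pericytes of the vessel wall.

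Cells were assigned by the unique molecular identifiers (UMIs) of a few marker genes, none of them a Notch gene. A thymic epithelial cell (TEC) had at least 2 UMIs of Epcam, an endothelial cell (EC) at least 2 of Pecam1, a fibroblast (FB) at least 2 of Pdgfra, and a mural cell at least 5 of Rgs5 and Acta2 together. Barcodes that met the rule of 2 classes were dropped. In the order Foxn1Lin female, Foxn1Lin male and wild type, which is kept for all values below, this gave 475, 427 and 871 TECs, 1903, 818 and 859 ECs, 1875, 864 and 1713 FBs, and 433, 449 and 355 mural cells. The wild-type library carries a PECAM1+ label in its cell type field and a CD45- label in its title, and its TECs and FBs were as many as given here. Of markers that the rule did not use, Cdh5 was at 876 to 937 CPM (UMIs of a gene per 1000000 UMIs of all genes) in ECs and at most 39.8 CPM in the other classes, Krt8 at 1624 to 1880 CPM in TECs and at most 92.8 CPM elsewhere, and Tagln at 3004 to 4270 CPM in mural cells and at most 120 CPM elsewhere. Col1a2 was at 1211 to 1564 CPM in FBs, and mural cells held up to 252 CPM of it. The Foxn1Lin female library held the most free RNA, with 26.5% of its UMIs outside called barcodes against 12.9% and 9.46%, and it also held the most FB markers in TECs, ECs and mural cells and the most EC markers in TECs, FBs and mural cells.

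CPM were taken on the UMIs summed over the cells of a class in a library. The tests compared these sums with edgeR's quasi-likelihood test with the library as a block, so that the error is the spread of a class difference over the 3 libraries, which differ in genotype and sex. A gene was called when its p adjusted over all genes tested by the Benjamini-Hochberg method was under 0.05. Intervals on levels cover counting error only. Levels are compared between classes or libraries for the same gene.

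The start regions of Dll4, Notch4 and Notch3 are shown because these genes had the widest class differences in what follows, toward ECs for Dll4 and Notch4 and toward mural cells for Notch3. Each start region is the 250 bases before the RefSeq start on GRCm38.p6, read 5′ to 3′ on the strand of the gene, at chr2:119325534-119325783 on the plus strand for Dll4, chr17:34564045-34564294 on the plus strand for Notch4 and chr17:32166891-32167140 on the minus strand for Notch3. Capitals mark the GC box GGGCGG or its reverse complement.
Dll4: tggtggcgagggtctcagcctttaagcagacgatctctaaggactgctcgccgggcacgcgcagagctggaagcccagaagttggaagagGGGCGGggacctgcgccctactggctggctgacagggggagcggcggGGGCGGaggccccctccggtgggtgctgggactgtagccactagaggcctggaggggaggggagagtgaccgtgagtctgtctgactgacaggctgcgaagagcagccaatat
Notch4: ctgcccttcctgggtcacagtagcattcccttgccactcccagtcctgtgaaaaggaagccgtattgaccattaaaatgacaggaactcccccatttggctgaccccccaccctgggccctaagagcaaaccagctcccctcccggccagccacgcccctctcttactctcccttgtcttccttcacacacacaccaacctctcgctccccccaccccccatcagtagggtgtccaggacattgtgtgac
Notch3: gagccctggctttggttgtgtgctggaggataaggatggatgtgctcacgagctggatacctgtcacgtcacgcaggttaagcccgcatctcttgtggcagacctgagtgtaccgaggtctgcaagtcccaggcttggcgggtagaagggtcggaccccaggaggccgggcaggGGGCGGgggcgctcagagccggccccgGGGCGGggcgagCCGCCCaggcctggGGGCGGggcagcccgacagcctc
The GC box stood 2 times before Dll4 and 4 times before Notch3 and was not found before Notch4, and 32.7% of all 32851 windows of this length held it. This motif was chosen after the sequences were read. The RBPJ core TGGGAA was in none of the 9 windows of the 8 members that had one in the table, against 21.6% of all windows. The FOXN1 core GACGC was in 3 of the 9, those of Notch1, Jag1 and the first of 2 for Dll1, against 22.6% of all windows, and it was not found in the window of Dll4. The windows of Notch1 and the first of Dll1 lie wholly inside the annotated gene, as do 124 bases of the Jag1 window. These are letter matches on both strands and not sites of binding. Hey1 and Heyl had no entry in the table. On GRCm38 the genes themselves span chr2:119325784-119335962 for Dll4, chr17:34564268-34588503 for Notch4 and chr17:32120820-32166852 for Notch3, so that 27 bases of the Notch4 window lie inside the annotated gene.

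Among the receptors, Notch3 was the mural gene. Its level in mural cells was 818, 738 and 1062 CPM. In FBs it was 48.5, 61.2 and 60.4 CPM, in TECs 20.2, 18.3 and 45.2 CPM, and in ECs 13.1, 2.63 and 2.67 CPM. No range over the 3 libraries overlapped between mural cells, FBs, TECs and any EC subset, and ECs stood lowest in every library. Mural cells with a Notch3 UMI were 87.5%, 92.2% and 96.6%, and after thinning each cell to 2000 UMIs they were 74.4%, 71.1% and 84.4%. The same share after thinning was 9.06%, 9.76% and 10.3% in FBs but 2.18%, 0.378% and 0.489% in ECs, a class that should lack the gene, and the level in empty droplets was 41.7, 57.8 and 64.3 CPM.

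Notch1, the receptor that T cell progenitors need, was most abundant in ECs in this CD45- stroma. Its level in ECs was 198, 208 and 252 CPM. In TECs it was 40.1, 70.9 and 123 CPM, in mural cells 55.5, 83.8 and 103 CPM, and in FBs 29.4, 45.2 and 51.7 CPM. The EC range lay above those of the other classes, whereas the ranges of mural cells and TECs, and those of TECs and FBs, overlapped. T cells also express Notch1, and ECs outside the arterial and venous gates defined below carried 120, 248 and 476 CPM summed over 8 T cell markers against 38.7, 9.96 and 48.1 CPM in the arterial gate. Notch1 was at 230, 284 and 329 CPM in the arterial gate and 183, 214 and 271 CPM in other ECs, and with barcodes that carried T cell or Ptprc UMIs dropped, Notch1 remained called in ECs against the other classes (log2 fold change 1.94, edgeR adjusted p = 1.11e-08).

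Notch4, a receptor of endothelium, was at 81.0, 60.9 and 63.1 CPM in ECs. It stayed at or under 3.08 CPM in TECs and FBs, and at 9.32, 1.46 and 1.22 CPM in mural cells. The high mural value is that of the Foxn1Lin female library, in which mural cells also carried 277 CPM of EC markers against 51.4 and 40.4 CPM in the others. The share of cells with a Notch4 UMI after thinning was 10.2% to 15.3% in ECs and 0.118% to 0.433% in TECs.

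Notch2 had the reverse pattern. It was at 107, 109 and 149 CPM in mural cells, 66.0, 106 and 120 CPM in TECs and 90.4, 67.0 and 96.3 CPM in FBs. The TEC range overlapped with those of mural cells and FBs, whereas mural cells were above FBs in every library with no overlap. In ECs it was at 18.4, 12.5 and 20.2 CPM, below every other class in every library.

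**Figure D1:**
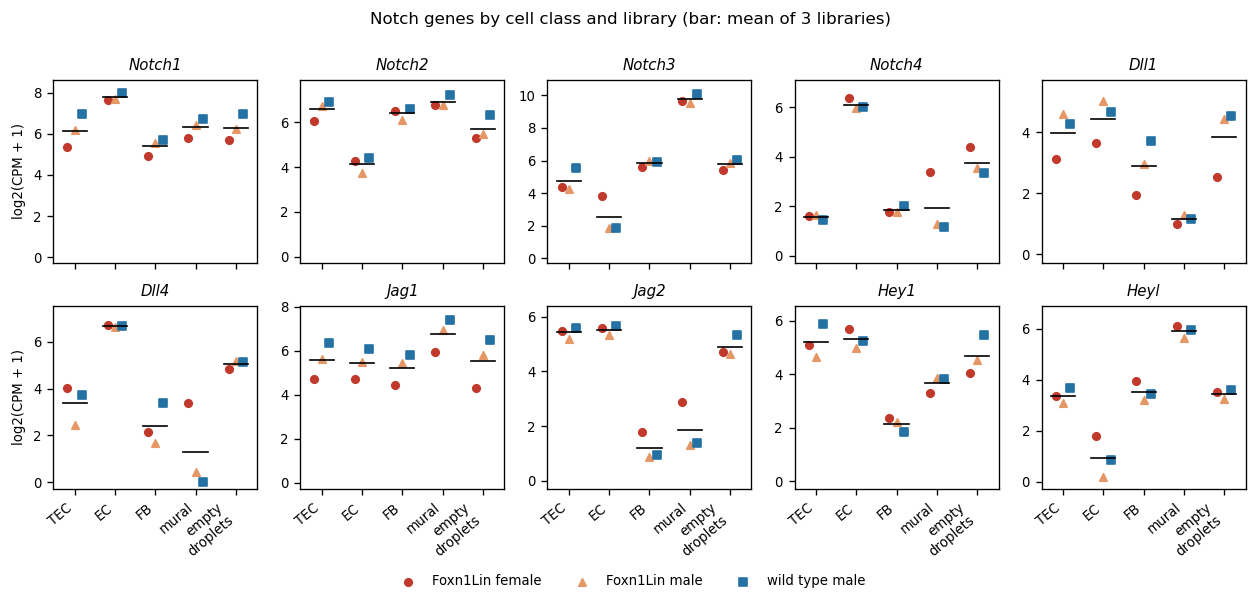
Level of each of the 10 Notch genes, as log2(CPM + 1), in TECs, ECs, FBs, mural cells and empty droplets, with 1 point for each library and a bar at the mean of the 3 libraries. Notch3 and Heyl are highest in mural cells and Notch4 and Dll4 in ECs, and Jag1 runs from the Foxn1Lin female library up to wild type in each column.

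Among the ligands, Dll4 had its highest level in ECs. Its level in ECs was 104, 99.2 and 103 CPM. In TECs it was 15.2, 4.49 and 12.4 CPM, in FBs 3.48, 2.20 and 9.36 CPM, and in mural cells 9.32, 0.364 and 0 CPM. The TEC and FB ranges overlapped. Empty droplets held 27.6, 35.0 and 34.6 CPM of Dll4, above the level in TECs as a whole. The TECs with a Dll4 UMI were 13.7%, 3.75% and 12.2%, and after thinning 2.38%, 0.732% and 1.88%. In FBs the share after thinning was 0.597%, 0.348% and 1.71%, a range that overlaps that of TECs. Whether the Dll4 UMIs of FBs are carried over from other cells was not tested.

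Jag2, a ligand of the serrate family, was shared by endothelium and epithelium. It was at 47.1, 38.8 and 49.8 CPM in ECs and at 43.7, 35.6 and 47.1 CPM in TECs. FBs had 2.46, 0.811 and 0.917 CPM and mural cells 6.38, 1.46 and 1.63 CPM. The EC and TEC values ran side by side in each library, and the values of FBs and mural cells lay below both in each.

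Dll1 was low in every class. ECs had 11.6, 31.8 and 24.4 CPM, TECs 7.66, 23.5 and 18.2 CPM, FBs 2.87, 6.84 and 12.3 CPM, and mural cells 0.981, 1.46 and 1.22 CPM. The venous gate of ECs held the highest values, at 32.8, 42.1 and 31.9 CPM, and its range did not overlap that of the next class. Mural cells were lowest and rested on 2, 4 and 3 UMIs.

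Jag1 was the most widely spread ligand. It was at 60.4, 124 and 168 CPM in mural cells, 25.2, 48.3 and 81.0 CPM in TECs, 25.5, 43.1 and 66.6 CPM in ECs and 20.4, 42.4 and 54.0 CPM in FBs. Within each library mural cells were highest, yet the ranges of neighboring classes overlapped, because the level differed among libraries in every class in the same order. Empty droplets had the same order, at 18.8, 55.1 and 87.3 CPM.

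Of the target genes, Heyl was highest in mural cells and Hey1 in ECs and TECs. Heyl was at 68.2, 49.2 and 60.0 CPM in mural cells, 14.3, 8.23 and 9.95 CPM in FBs, 9.13, 7.58 and 11.8 CPM in TECs, and 2.48, 0.131 and 0.801 CPM in ECs. Its mural range overlapped no other. Hey1 was at 51.4, 30.5 and 37.2 CPM in ECs and 33.0, 23.8 and 57.5 CPM in TECs, while FBs stayed at 2.55 to 4.10 CPM and mural cells at 8.83 to 13.5 CPM. The order of ECs and TECs for Hey1 turned between libraries, with ECs higher in both Foxn1Lin libraries and TECs higher in wild type.

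Of the 10 genes, 6 had their highest mean level in ECs (Notch1, Notch4, Dll1, Dll4, Jag2 and Hey1) and 4 in mural cells (Notch2, Notch3, Jag1 and Heyl). TECs and FBs were highest for 0 of the 10. For Dll1, Jag2, Hey1, Notch2 and Jag1 the range of the highest class overlapped that of TECs, so these places rest on means. The same count was not taken over all genes, so it has no share to be set against.

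In the fit over 18 sums, ECs were taken as the mean of 3 subsets and set against the mean of the other classes. In ECs, 6 of the 10 genes were called higher and 4 lower, where 27.8% and 35.3% of all 14199 genes tested were called (63.1% in either direction). Notch4 was higher by 4.57 ± 0.23 on the log2 scale (SE, n = 3 libraries, edgeR adjusted p = 7.24e-10) and Dll4 by 4.34 ± 0.35 (edgeR adjusted p = 1.04e-07). Jag2 was higher by 2.82 ± 0.25, Dll1 by 2.12 ± 0.20, Notch1 by 1.92 ± 0.13 and Hey1 by 1.28 ± 0.24. Heyl was lower, with a log2 fold change of -4.25 ± 0.35, as were Notch3 at -4.20 ± 0.34, Notch2 at -2.40 ± 0.13 and Jag1 at -0.52 ± 0.09. Heyl had 24, 1 and 6 UMIs in ECs, so the size of its fold rests on few counts. Each of the 10 differences had its direction in 3 of 3 libraries, and each was called when any 1 library was left out, while Jag1 lost its call without the library block (edgeR adjusted p = 0.0974). The median over the 10 genes, which went both ways, was 1.60, against -0.10 over all genes.

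In mural cells, 4 genes were called higher and 3 lower, against 19.9% and 18.4% of all genes (38.3% in either direction). Notch3 was higher by 5.44 ± 0.31 (edgeR adjusted p = 8.29e-09), Heyl by 3.77 ± 0.27, Jag1 by 1.51 ± 0.12 and Notch2 by 1.26 ± 0.15, each in 3 of 3 libraries. The ligands Dll1 (-3.38 ± 0.40), Dll4 (-2.55 ± 0.69) and Jag2 (-2.09 ± 0.46) were lower. Dll4 lost its call without the Foxn1Lin male library (edgeR adjusted p = 0.0800) or the wild type (0.118), and Jag2 without the wild type (0.0509). Notch4, at -0.87 ± 0.41 with an edgeR adjusted p of 0.112, was called lower without the Foxn1Lin female library (-2.18, edgeR adjusted p = 0.000396). Notch1 (-0.09 ± 0.17) and Hey1 (-0.24 ± 0.34) did not pass. The median over the 10 genes was -0.16, against -0.08 over all genes.

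In TECs, 4 genes were called higher and 4 lower, against 33.1% and 27.7% of all genes (60.8% in either direction). The higher genes were Jag2 (2.73 ± 0.28, edgeR adjusted p = 1.04e-06), Hey1 (1.61 ± 0.26), Dll1 (1.23 ± 0.24) and Notch2 (0.53 ± 0.15). The lower genes were Notch4 (-2.32 ± 0.35), Notch3 (-1.52 ± 0.39), Notch1 (-0.55 ± 0.17) and Jag1 (-0.43 ± 0.13), and for Notch1 and Jag1 TECs lay below the mean of the other classes in 2 of 3 libraries. Dll4 (-0.36 ± 0.48) and Heyl (-0.03 ± 0.55) did not pass the test. The calls of Notch1, Notch2, Notch3 and Jag1 were lost without the Foxn1Lin male library (edgeR adjusted p from 0.0638 to 0.250), which left 4 called, and that of Notch2 also without the wild type (0.0997). Notch1 and Jag1 also lost theirs without the library block (edgeR adjusted p = 0.158 and 0.437) and with cells thinned to 2000 UMIs (0.173 and 0.183). The median over the 10 genes was -0.20, against 0.05 over all genes.

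In FBs, 1 gene was called higher and 6 lower, against 24.5% and 20.6% of all genes (45.0% in either direction). Notch2 was higher by 0.61 ± 0.15 (edgeR adjusted p = 0.00348). Jag2 (-3.46 ± 0.41), Hey1 (-2.65 ± 0.35), Dll4 (-1.44 ± 0.52), Notch4 (-1.38 ± 0.33), Notch1 (-1.29 ± 0.18) and Jag1 (-0.56 ± 0.13) were lower. The value of Dll4 turned to 0.10 without the Foxn1Lin female library (edgeR adjusted p = 0.956) and lost its call without the Foxn1Lin male library (0.112), and Jag1 lost its call without the wild type (0.0708). Without the library block Jag1 and Dll4 were not called (edgeR adjusted p = 0.306 and 0.0706), and with cells thinned to 2000 UMIs Notch4 and Dll4 were not (0.0820 and 0.0537). Heyl (0.52 ± 0.30), Notch3 (0.27 ± 0.34) and Dll1 (0.02 ± 0.21) did not pass. The median over the 10 genes was -0.93, against 0.01 over all genes.

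**Figure D2:**
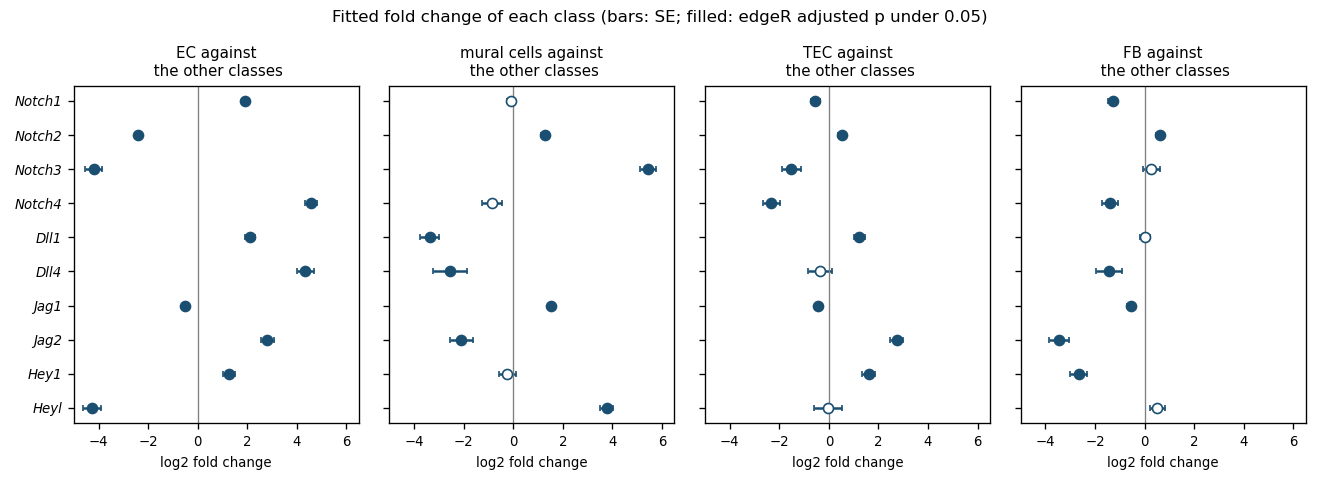
Fitted log2 fold change (x axis, bars are 1 SE) of each Notch gene (y axis) in ECs, mural cells, TECs and FBs, each against the mean of the other classes over 3 libraries, with filled points for an edgeR adjusted p under 0.05. Notch4 and Dll4 lie farthest to the right in ECs and Notch3 and Heyl in mural cells.

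Other genes of the pathway came from a list of 34, of which 31 passed the filter on low counts. In ECs 15 were called higher and 10 lower, where 27.8% and 35.3% of all genes were called. Mfng and Lfng, which add sugars to the receptors and change which ligands they answer, were higher in ECs by 5.02 ± 0.36 and 2.94 ± 0.36, whereas the other 3 glycosyltransferases were called lower. Mfng was at 34.2, 57.7 and 45.9 CPM in ECs against at most 5.41 CPM in TECs, FBs and mural cells. Neurl3, a ubiquitin ligase, was higher in ECs by 4.89 ± 0.29, and Nrarp, a Notch target that feeds back on the pathway, by 2.33 ± 0.20. The target Hey2 was lower (-2.65 ± 0.30). Dlk1, a non-canonical ligand, was called lower with 2, 0 and 0 UMIs in ECs, so the size of its fold is not given.

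Mural cells had 10 of these genes called higher and 11 lower, where 19.9% and 18.4% of all genes were called. The called targets of the list were Hey2 (4.64 ± 0.22), Nrarp (4.46 ± 0.22) and Hes1, all higher, while Hes5 and Dtx1 stayed at or under 2.21 CPM in all 4 classes and were not tested. Nrarp was at 71.2, 162 and 130 CPM in mural cells, above ECs at 38.1, 48.1 and 34.0 CPM and above FBs at 0.888, 0.464 and 0.524 CPM. Neurl1b (1.86 ± 0.19) was also higher, and Lfng (-2.08 ± 0.70) was lower. Dlk1 was called higher too, and with its few UMIs in ECs, given above, the size of its fold is not given. Dlk2 was called lower with 0 UMIs in mural cells of all 3 libraries, so its fold has no measured size. In TECs 8 were called higher and 15 lower, where 33.1% and 27.7% of all genes were called. Dlk2 and Dlk1, both non-canonical ligands, were among the 8. Since Dlk2 had 0 UMIs in mural cells and Dlk1 few in ECs, the sizes of their folds are not given. Neurl1b was lower (-3.32 ± 0.24). Neurl1a (2.67 ± 0.48) and Hey2 (1.81 ± 0.24) were higher as well and Lfng lower (-1.86 ± 0.55). In FBs 8 were called in each direction, where 24.5% of all genes were called higher and 20.6% lower. Nrarp (-5.43 ± 0.37), Hey2 (-3.79 ± 0.35), Mfng (-3.20 ± 0.70), Neurl3 (-2.69 ± 0.43) and Neurl1a (-1.65 ± 0.63) were lower. Numbl (2.28 ± 0.16), related to the Notch inhibitor Numb, was higher.

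ECs were then split by vessel type. The arterial gate took ECs with at least 2 UMIs of Gja5, Gja4 and Sox17 together (480, 238 and 188 cells) and the venous gate those with at least 2 of Selp, Ackr1 and Vwf (112, 211 and 236 cells). The remaining 1266, 259 and 332 ECs in neither gate are called other ECs, and ECs in both were left out of the sums. Of arterial markers that the gate did not use, Sema3g was at 95.3, 112 and 239 CPM in the arterial gate and 50.2, 70.3 and 89.3 CPM in other ECs, whereas Efnb2 was at 111, 162 and 245 CPM against 111, 147 and 198 CPM, with ranges that overlap. Of venous markers outside the gate, Nr2f2 was at 137, 241 and 188 CPM in the venous gate and 52.3, 79.0 and 29.6 CPM in other ECs, and Ephb4 at 56.3, 78.2 and 82.9 CPM against 47.0, 88.4 and 118 CPM. The venous gate of the Foxn1Lin female library also carried 377 CPM over 5 lymphatic markers against 22.6 CPM in each of the others, and that library had the highest Hey1, Jag2 and Notch4 of the 3 in this gate, as given in what follows. Whether the former has a part in the latter was not tested. The arterial gate also held 5526, 7983 and 5456 CPM over 5 capillary markers, close to the 4685, 8033 and 5148 CPM of other ECs, so it is not an artery population free of capillary cells. Gated cells were deeper, with a median of 5754, 8364 and 8276 UMIs in the arterial gate and 3105, 4904 and 4681 in other ECs.

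Between arterial and venous gates, the target Hey1, the ligands Jag2 and Dll1 and the receptor Notch4 passed the test. Hey1 was at 70.0, 53.5 and 69.1 CPM in the arterial gate and at 19.9, 2.71 and 6.65 CPM in the venous gate. Jag2 was at 55.4, 67.7 and 79.9 CPM against 30.5, 7.69 and 11.1 CPM. The groups did not overlap for either gene. Notch4 was at 101, 87.2 and 86.9 CPM against 52.8, 20.8 and 23.1 CPM. Dll1 was at 9.74, 19.9 and 21.6 CPM in the arterial gate against 32.8, 42.1 and 31.9 CPM in the venous gate. Of all genes tested 8.45% were called higher and 8.85% lower in the arterial gate (17.3% in either direction), and of the 10 Notch genes 3 were called higher and 1 lower. Hey1 was higher by 2.94 ± 0.44 (edgeR adjusted p = 0.000490), Jag2 by 2.18 ± 0.40 and Notch4 by 1.54 ± 0.33, and Dll1 was lower (-1.18 ± 0.30), each in 3 of 3 libraries.

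Dll4 was at 122, 135 and 132 CPM in the arterial gate and at 63.4, 61.5 and 74.5 CPM in the venous gate. These values did not overlap, and the fitted difference of 0.87 ± 0.50 did not pass the test (edgeR adjusted p = 0.274). Notch1, at 0.65 ± 0.22, also missed it (edgeR adjusted p = 0.0541), as did Notch2 at -0.76 ± 0.26, Notch3 at 0.15 ± 0.82 and Jag1 at 0.05 ± 0.17. Heyl did not pass either, and its UMIs were 1, 0 and 1 in the arterial gate and 4, 1 and 0 in the venous gate. Without the Foxn1Lin male library Notch4, Dll1 and Jag2 lost their calls (edgeR adjusted p from 0.0977 to 0.166), and without the wild type Notch4 and Jag2 did (0.0845 and 0.0924). Without the Foxn1Lin female library Dll1 lost its call (0.0556) and Notch1 gained one (0.00716). Dll1 was also not called without the library block (edgeR adjusted p = 0.172) or with cells thinned (0.119). Notch2 was called lower with barcodes that carried T cell or Ptprc UMIs dropped (-1.10, edgeR adjusted p = 0.0183) and with Scrublet doublets dropped (-0.90, 0.0434), and Notch1 was called higher with gates 1 UMI higher (edgeR adjusted p = 0.0434) and by DESeq2 (adjusted p = 0.0423). Over the 10 genes the median was 0.40, against 0.06 over all genes.

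Against other ECs, the venous gate had 2 of the 10 genes called higher and 3 lower, where 10.3% and 8.80% of all genes were called (19.1% in either direction). Dll1 was higher by 1.54 ± 0.30 (edgeR adjusted p = 0.00302) and Jag1 by 0.61 ± 0.18. Hey1 (-1.92 ± 0.45), Jag2 (-1.57 ± 0.41) and Notch4 (-1.12 ± 0.33) were lower. Notch3 (-1.09 ± 0.75), Dll4 (-0.42 ± 0.51), Notch2 (0.16 ± 0.25) and Notch1 (-0.14 ± 0.22) did not pass, nor did Heyl, with 4, 1 and 0 UMIs against 19, 0 and 5. No call was left without the Foxn1Lin male library (edgeR adjusted p from 0.0611 to 0.333), and that of Dll1 alone without the wild type (0.113 to 0.265 for the other 4). With barcodes that carried T cell or Ptprc UMIs dropped, the log2 fold change of Jag1 was 0.37 and was not called (edgeR adjusted p = 0.202), nor was it without the filter on low counts (0.0707). Without the library block Hey1 alone was called (edgeR adjusted p from 0.0543 to 0.415 for the other 4), and with cells thinned Dll1 alone (0.0536 to 0.184). Medians were -0.69 over the 10 genes and -0.13 over all genes.

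Between the arterial gate and other ECs, 0 of the 10 genes were called, where 0.0493% of all genes were called higher and 0.486% lower by edgeR (0.535% in either direction). At an unadjusted p under 0.05 there were 5, and DESeq2, which called 424 of all 14199 genes, called 1, Jag1. Jag1 was at 25.3, 43.6 and 69.7 CPM in the arterial gate and 23.1, 26.1 and 42.1 CPM in other ECs, a difference of 0.65 ± 0.17 (edgeR adjusted p = 0.104) that was called without the Foxn1Lin female library (0.87, edgeR adjusted p = 0.0460). Hey1, at 43.6, 30.4 and 32.7 CPM in other ECs, differed by 1.01 ± 0.36 (edgeR adjusted p = 0.196) and was higher in the arterial gate in 3 of 3 libraries. Jag2 (0.61 ± 0.35), Notch1 (0.51 ± 0.21), Dll4 (0.45 ± 0.49) and Notch4 (0.42 ± 0.30) had positive differences in 3 of 3 libraries, and Notch3 (-0.94 ± 0.64) and Notch2 (-0.60 ± 0.25) negative ones in 3 of 3. Dll1 was at 0.36 ± 0.30. Heyl had 1, 0 and 1 UMIs in the arterial gate and 19, 0 and 5 in other ECs. Over the 10 genes the median was 0.44, against -0.01 over all genes.

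Of the pathway list, 31 were tested, and 2 were called higher and 3 lower in the arterial against the venous gate, where 8.45% and 8.85% of all genes were called. Hes1 (1.82 ± 0.33) and Nrarp (1.09 ± 0.32), both targets, were higher, and Psen2, a catalytic subunit of the receptor protease gamma-secretase (-1.72 ± 0.37), and Maml2, a coactivator of RBPJ (-1.26 ± 0.20), were lower. Against other ECs, the venous gate had 5 called higher and 1 lower, where 10.3% and 8.80% of all genes were called. Psen2 (2.33 ± 0.39) and Maml2 (1.28 ± 0.20) were among the higher, and Hes1 (-1.35 ± 0.33) was the lower one. In the arterial gate against other ECs 0 of the list were called by edgeR, where 0.535% of all genes were. Of the list 3 had an unadjusted p under 0.05, and DESeq2 called 1.

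**Figure D3:**
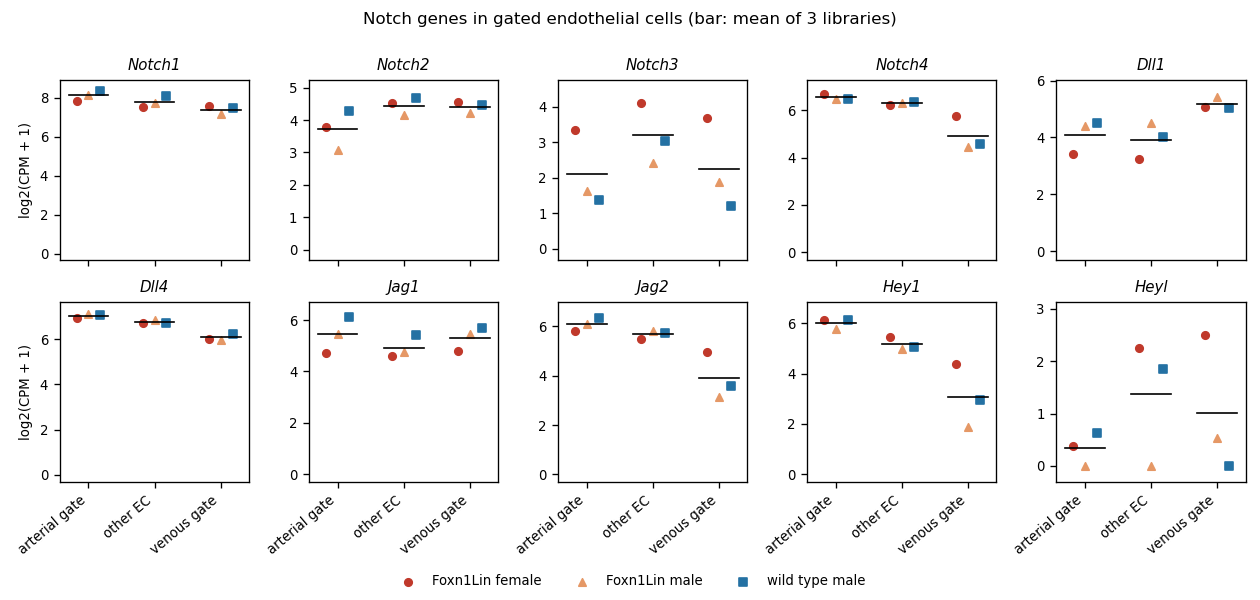
Level of each Notch gene, as log2(CPM + 1), in ECs of the arterial gate, other ECs and ECs of the venous gate, with 1 point for each library and a bar at the mean. Hey1, Jag2 and Notch4 are lowest and Dll1 highest in the venous gate in each of the 3 libraries.

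TECs were split by at least 2 UMIs of Psmb11, the proteasome subunit of cortical epithelium, of Aire, the regulator of tissue antigens in the medulla, or of Cldn3. The study proposes this claudin as a marker of a TEC state that appears with age and lacks cortical and medullary markers. Whether the Cldn3 gate holds such cells was not tested. The Psmb11 gate held 76, 10 and 68 cells, the Aire gate 92, 50 and 124, the Cldn3 gate 88, 62 and 200, and 188, 283 and 429 TECs were in none. The Psmb11 sum of Foxn1Lin male mice, with under 20 cells, was left out of the fit, so that gate rests on 2 libraries. Gated TECs were deeper, with medians of 21484 and 28562 UMIs in the Psmb11 gate of the Foxn1Lin female and wild-type libraries against 6828 and 11556 in ungated TECs.

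Dll4, low over all TECs, was held by the Psmb11 and Aire gates. In the Psmb11 gate it was at 27.9 and 48.6 CPM in the Foxn1Lin female and wild-type libraries, and 42.1% and 60.3% of the cells had a UMI. The 10 Foxn1Lin male cells of this gate had 1 UMI of Dll4. The Aire gate had 17.2, 14.0 and 26.1 CPM of Dll4, ungated TECs had 6.48, 1.43 and 2.44 CPM, and the Cldn3 gate had 4.69, 3.60 and 1.63 CPM. The values of the Psmb11 and Aire gates lay above those of ungated TECs in each library, and after thinning the share in the Psmb11 gate was 10.5% and 7.46% against 0.568% and 0.487% in ungated TECs.

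In the Psmb11 gate against ungated TECs, 2 genes were called higher and 2 lower of 9 tested, where 7.64% and 9.97% of all genes were called (17.6% in either direction). Dll4 was higher by 3.47 ± 0.56 (edgeR adjusted p = 0.00441) and Hey1 by 1.78 ± 0.31. Hey1 was at 73.2 and 128 CPM in this gate and 18.2 and 45.8 CPM in ungated TECs. Notch3 (-2.12 ± 0.32) and Notch1 (-1.20 ± 0.18) were lower. The Psmb11 gate also carried 306 and 184 CPM over the 8 T cell markers against 128 and 44.4 CPM in all TECs of these libraries. With barcodes that carried T cell or Ptprc UMIs dropped, Notch1 was not called (-0.83, edgeR adjusted p = 0.145), and Dll4 (3.31), Hey1 (1.81) and Notch3 (-2.31) were. Jag2 had a difference of 1.01 ± 0.33 and did not pass (edgeR adjusted p = 0.0610), with 104 and 115 CPM against 37.7 and 72.3 CPM. Heyl (0.82 ± 0.53), Jag1 (-0.64 ± 0.21), Notch2 (-0.50 ± 0.19) and Dll1 (-0.38 ± 0.33) did not pass, and Notch4 was too low to be tested in any comparison among TECs. The Foxn1Lin male library had too few cells in this gate to enter, so that leaving out either other library left the gate in 1 library, whose spread was taken from the other sums. Calls are therefore not given for these fits. Without the wild type the log2 fold change was 2.66 for Dll4, 2.16 for Hey1, -1.81 for Notch3 and -1.21 for Notch1. Without the Foxn1Lin female library Hey1 was also higher in the gate. Without the library block Dll4 alone was called (edgeR adjusted p from 0.0576 to 0.278 for the other 3). With cells thinned 0 were called (edgeR adjusted p from 0.0715 to 0.216 for the same 3), and Dll4 was too low to be tested. With gates 1 UMI higher Notch3 was not (0.0777), whereas Jag1 was called lower (-0.84, edgeR adjusted p = 0.0322). Jag2 was called without the filter on low counts (edgeR adjusted p = 0.0416). Medians were -0.38 over the 9 genes and -0.16 over all genes.

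In the Aire gate 1 gene was called higher and 7 lower of 9 tested, where 20.2% and 20.1% of all genes were called (40.3% in either direction). Dll4 was higher by 2.65 ± 0.52 (edgeR adjusted p = 0.00349), in 3 of 3 libraries. Hey1 fell to 1.57, 0 and 3.93 CPM against 18.2, 20.6 and 45.8 CPM in ungated TECs (-3.70 ± 0.42). Notch3 (-3.19 ± 0.33), Dll1 (-2.91 ± 0.34), Jag2 (-2.88 ± 0.35), Jag1 (-2.27 ± 0.20), Notch2 (-1.34 ± 0.17) and Notch1 (-1.26 ± 0.16) were lower as well, each in 3 of 3 libraries. Jag2 was at 7.83, 5.37 and 8.94 CPM in the Aire gate and at 37.7, 51.9 and 72.3 CPM in ungated TECs, with no overlap. Heyl (-0.32 ± 0.52) did not pass, Dll4 lost its call without the wild type (edgeR adjusted p = 0.0615), and Notch1 without the library block (0.0917). With cells thinned Dll1 and Dll4 were too low to be tested. Over the 9 genes the median was -2.27, against -0.01 over all genes.

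In the Cldn3 gate 0 genes were called higher and 4 lower, where 4.01% and 3.84% of all genes were called (7.85% in either direction). Jag2 (-2.13 ± 0.31, edgeR adjusted p = 0.00673) was at 5.48, 10.8 and 20.1 CPM and Dll1 (-1.93 ± 0.31) at 5.48, 9.01 and 7.24 CPM, each below ungated TECs in 3 of 3 libraries. Jag1 (-0.72 ± 0.18) and Notch2 (-0.69 ± 0.16) were lower as well. Hey1, with 30.5, 51.3 and 71.4 CPM, was above ungated TECs in 3 of 3 libraries and did not pass (0.85 ± 0.28, edgeR adjusted p = 0.0975). Heyl (0.94 ± 0.48), Notch3 (0.48 ± 0.24), Dll4 (-0.17 ± 0.63) and Notch1 (-0.16 ± 0.15) did not pass either. Leaving out the Foxn1Lin female library ended the calls of Notch2 and Jag1 (edgeR adjusted p from 0.0602 to 0.105), leaving out the Foxn1Lin male library also that of Dll1 (0.0585 to 0.250 for the 3), and leaving out the wild type all 4 (0.102 to 0.364). Calls fell over all genes too, to 738 of 16066, 344 of 14107 and 24 of 14157 in the same order, from 1142 of 14549. Without the library block Jag2 alone was called (edgeR adjusted p from 0.103 to 0.518 for the other 3). Notch2 lost its call with barcodes that carried T cell or Ptprc UMIs dropped (-0.62, edgeR adjusted p = 0.0642) and with cells thinned (0.141), where Dll1 was too low to be tested. Jag1 lost its call with cells thinned (edgeR adjusted p = 0.298), without the filter on low counts (0.0623), with Scrublet doublets dropped (0.0510) and by DESeq2 (adjusted p = 0.0702). Medians were -0.17 over the 9 genes and -0.03 over all genes.

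**Figure D4:**
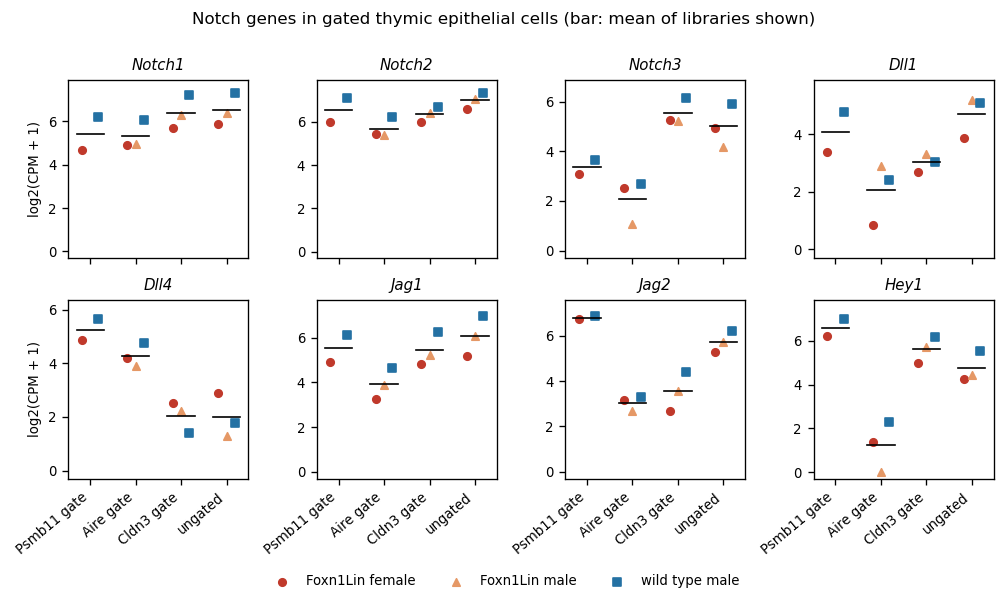
Level of 8 Notch genes, as log2(CPM + 1), in TECs of the Psmb11, Aire and Cldn3 gates and in ungated TECs, with 1 point for each library and a bar at the mean of the points shown. The Psmb11 gate has 2 points because 10 cells were in it in Foxn1Lin male mice, Dll4 is highest in the Psmb11 gate, and Hey1 and Jag2 are lowest in the Aire gate by their means.

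TECs with at least 1 UMI of Foxn1 were 189, 124 and 343, and those without were 286, 303 and 528. Dll4, which FOXN1 is known to switch on, was at 19.9, 7.71 and 21.5 CPM with Foxn1 and at 9.28, 2.50 and 2.61 CPM without. It was higher with Foxn1 in 3 of 3 libraries, by 1.90 ± 0.45, and did not pass the test (edgeR adjusted p = 0.128). Notch3 was lower with Foxn1 in 3 of 3 libraries (-1.02 ± 0.24, edgeR adjusted p = 0.125), at 17.2, 8.92 and 29.4 CPM against 23.9, 24.0 and 62.1 CPM. The other values were 0.49 ± 0.39 for Jag2, -0.42 ± 0.20 for Dll1, -0.32 ± 0.18 for Notch1, 0.22 ± 0.25 for Heyl, -0.16 ± 0.19 for Jag1, -0.12 ± 0.14 for Notch2 and 0.07 ± 0.63 for Hey1. In this comparison 0 of 9 tested Notch genes were called by edgeR, where 0.00% of all genes were called higher and 0.0141% lower. At an unadjusted p under 0.05 there were 2, and DESeq2, which called 889 of all 14213 genes, called 1, Dll4. Without the Foxn1Lin female library, where 1535 of all 15616 genes were called, both Dll4 (2.40) and Notch3 (-1.28) were (edgeR adjusted p = 0.0359 and 0.0219), and with cells thinned Notch3 was (-1.22, edgeR adjusted p = 0.0394). Over the 9 genes the median was -0.12, against 0.01 over all genes. The cells with Foxn1 were deeper, with medians of 17342, 16028 and 21915 UMIs against 8730, 10521 and 12412. Of the 29 other pathway genes tested 0 were called by edgeR, 6 had an unadjusted p under 0.05 and DESeq2 called 1.

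Among other pathway genes, 30 of which were tested, the Aire gate had 5 called higher and 11 lower, led by Dlk1 (6.98 ± 0.57). In that gate 20.2% and 20.1% of all genes were called higher and lower. Hey2 (-3.21 ± 0.46), Numbl (-3.19 ± 0.76), Maml2 (-3.19 ± 0.30) and Dlk2 (-3.06 ± 0.52) were lower and Mfng (3.16 ± 0.86) higher. The Psmb11 gate had 1 higher and 4 lower, where 7.64% and 9.97% of all genes were called. Rfng, a glycosyltransferase (1.55 ± 0.33), was the higher one, and the ubiquitin ligases Neurl3 (-3.06 ± 0.88) and Neurl1a (-3.00 ± 0.64) were among the lower. The Cldn3 gate had 2 higher and 3 lower, where 4.01% and 3.84% of all genes were called. Of these pathway genes Dlk2 (-2.19 ± 0.46) was the one past a log2 fold change of 1.

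Mural cells with at least 2 UMIs of Myh11, the heavy chain of smooth muscle myosin, were 286, 347 and 288, and 147, 102 and 67 were outside this gate. Notch3 was at 922, 795 and 1168 CPM in the Myh11 gate and at 615, 501 and 620 CPM in the other mural cells, with no overlap. Of 6 Notch genes tested 2 were called higher, Notch3 (0.88 ± 0.16, edgeR adjusted p = 0.00686) and Notch2 (0.72 ± 0.20), and 0 lower, where 9.04% and 8.44% of all 9193 genes were called (17.5% in either direction). Heyl was at 59.4, 44.3 and 50.5 CPM against 85.4, 69.7 and 99.5 CPM, lower in 3 of 3 libraries, and missed the threshold (-0.56 ± 0.20, edgeR adjusted p = 0.0909). Hey1 (-1.09 ± 0.44), Jag1 (0.33 ± 0.18) and Notch1 (0.02 ± 0.18) did not pass either, and Notch4, Dll1, Dll4 and Jag2 were too low to be tested. The call of Notch2 was lost when any 1 library was left out (edgeR adjusted p from 0.0741 to 0.171), and that of Notch3 without the wild type (0.0642). Neither was called without the library block (edgeR adjusted p = 0.234 for Notch2 and 0.111 for Notch3), nor was Notch3 with cells thinned (0.0724) or Notch2 by DESeq2 (adjusted p = 0.207). Medians were 0.18 over the 6 genes and -0.01 over all genes.

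Of the pathway list 25 were tested, and 4 were called higher in the Myh11 gate and 0 lower, where 9.04% and 8.44% of all genes were called. The 4 were the targets Hey2 (2.30 ± 0.42), Nrarp (2.29 ± 0.31) and Hes1 (1.02 ± 0.18) and the ubiquitin ligase Mib2 (1.76 ± 0.49). With DESeq2 3 of the list were called.

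FBs were compared between a Pi16 gate (688, 68 and 142 cells), which takes adventitial-type cells, and a Ptn gate (444, 651 and 1205 cells), both at 2 UMIs. In the Foxn1Lin female library Pi16 was also at 108.5 CPM in ECs and 120.7 CPM in mural cells, against at most 4.14 CPM there in the other libraries. Whether free Pi16 RNA added cells to this gate was not tested. Notch2 was at 129, 119 and 144 CPM in the Pi16 gate and at 53.9, 62.9 and 89.8 CPM in the Ptn gate. Notch3 was at 30.7, 6.77 and 6.76 CPM against 42.3, 64.5 and 66.5 CPM, and Notch1 ran from 12.2 to 19.6 CPM against 31.7, 49.1 and 55.3 CPM. The values of each of these 3 receptors did not overlap between the gates. Of 9 genes tested 1 was called higher and 4 lower in the Pi16 gate, where 10.6% and 12.8% of all genes were called (23.5% in either direction). Notch2 was higher by 0.97 ± 0.16 (edgeR adjusted p = 0.000867), and Dll4 (-2.98 ± 0.54), Dll1 (-2.94 ± 0.40), Notch3 (-1.65 ± 0.41) and Notch1 (-1.25 ± 0.24) were lower, all in 3 of 3 libraries. Notch4 (-0.96 ± 0.60), Heyl (-0.66 ± 0.40), Hey1 (-0.29 ± 0.52) and Jag1 (-0.26 ± 0.21) did not pass, and Jag2 was too low to be tested. Dll4 and Dll1 rested on at most 7 UMIs per library in the Pi16 gate, and Dll4 was not tested without the Foxn1Lin female library, with gates 1 UMI higher, with barcodes that carried T cell or Ptprc UMIs dropped or, like Dll1, with cells thinned. Over the 9 genes the median was -0.96, against -0.04 over all genes. On the pathway list 4 were called higher, including Lfng (1.64 ± 0.45) and Rbpj (1.09 ± 0.17), and 2 lower, including Hes1 (-1.09 ± 0.16).

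Between libraries there is 1 library per group, so the values below carry counting intervals and no test. In TECs, the log2 ratio of Foxn1Lin male to wild-type male mice was -1.47 for Dll4 (95% interval -2.08 to -0.91), where the median over 14684 genes was -0.14. The Psmb11 gate, in which Dll4 was highest, held 10 of 427 TECs in the former and 68 of 871 in the latter. Hey1 (-1.27, -1.52 to -1.02) and Notch3 (-1.31, -1.60 to -1.03) were also lower in Foxn1Lin male TECs, and Dll1 was higher (0.37, 0.08 to 0.65). Most genes lay between -1.19 and 0.79 in this ratio, a spread that holds the value of Dll1. In ECs the same ratio was -0.05 for Dll4 (-0.19 to 0.10) and -0.05 for Notch4 (-0.24 to 0.13).

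Between female and male Foxn1Lin mice, Jag1 was lower in the female library in every class, with log2 ratios of -0.94 in TECs, -0.76 in ECs, -1.05 in FBs and -1.03 in mural cells. Most genes lay between -0.88 and 1.49 in TECs, -0.84 and 1.81 in ECs, -1.04 and 1.57 in FBs and -0.86 and 1.14 in mural cells. Jag1 in ECs was thus within the spread of most genes. For Dll1 the ratios were -1.62 in TECs, -1.46 in ECs (-1.79 to -1.13) and -1.25 in FBs, and -0.57 in mural cells, with an interval that includes 0 (-4.04 to 2.23). Dll4 was higher in female TECs by 1.76 (1.15 to 2.40) and close to equal in ECs (0.07, -0.06 to 0.21). The Psmb11 gate, in which Dll4 was highest, held 76 of 475 female and 10 of 427 male TECs. Notch3 was higher in female ECs by 2.32 (1.63 to 3.08), where ECs of that library also held 156 CPM over 8 mural markers against 33.1 CPM (203 against 154 CPM with Tagln, which was at 47.1 and 120 CPM) and 981 CPM of FB markers against 69.0 CPM. Sex, depth, free RNA and the share of TECs in the Psmb11 gate cannot be told apart between these libraries.

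Likeness of pattern was taken as Pearson's r of log2(CPM + 5) over the 18 sums of 6 classes in 3 libraries, among 7222 genes with a mean of at least 20 CPM, as a description, since the sums share libraries and depth. The gene nearest to Heyl was Notch3 (r = 0.98). Those nearest to Notch3 were Usp2 (0.99), Mark1 (0.99) and Tgfb3 (0.98), to Notch4 Uaca (0.99), Afap1l1 (0.99) and Podxl (0.99), and to Dll4 Sema7a (0.98), Ablim3 (0.98) and Wasf2 (0.98). Jag2 lay nearest to Hip1r (0.99), Irak2 (0.96) and Efnb2 (0.96), Hey1 to Ephb1 (0.94), Nebl (0.91) and Efnb2 (0.90), and Notch2 to Thrb (0.99), Fam110b (0.97) and Angpt1 (0.97). Notch1 lay nearest to Dcbld1, Bcar1 and Pik3c2a (each 0.95), and Dll1 to Arrdc4 (0.93), Fgd6 (0.93) and Stx6 (0.92). Jag1 had the lowest, with Gm20732 (0.88), mt-Co2 (0.85) and Slmap (0.85).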

How the data were processed

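Thymic stroma depleted of CD45+ cells was profiled in 3 droplet libraries of 20-month-old mice. The authors deposited raw UMI counts, made with Cell Ranger 7.0.1 on GRCm38, both for called and for all barcodes. Called barcodes numbered 8616, 3583 and 5478, with 53366016, 33386621 and 61258534 UMIs. Libraries shared 8, 14 and 3 barcodes.

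A barcode was removed when it had at most 1000 genes and also at least 20% mitochondrial UMIs (138, 149 and 222). Scrublet in scanpy 1.11.5 marked 0, 15 and 1 doublets automatically and had not worked, so its top 3.9% were dropped as an alternative only. Empty droplets were barcodes of low UMI count, in a window set per library. UMIs were summed per library and class and tested with edgeR 4.0.16 (TMM, filterByExpr, quasi-likelihood test, library as block, sums of at least 20 cells). DESeq2 1.42.0, no filter, no block, other gates, thinning to 2000 UMIs and leaving out libraries were alternatives. Shares have exact Clopper-Pearson and levels exact Poisson intervals. The edgeR fit was also run on simulated counts for some of the comparisons, not those of the Psmb11, Aire, Cldn3, Pi16 and Ptn gates. DESeq2 was not run on simulated counts.

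The 10 genes, the 34 pathway genes and the gates were chosen with earlier results of these data known. All 10 members are named in each tested comparison; between libraries the members named were chosen after their values were seen. Also named are pathway genes that were called with an absolute log2 fold change of at least 1, at most 6 a comparison. Gene positions are from GENCODE vM21 and start regions from RefSeq. The protocol text names female mice for all 3 libraries, and sex is given here as the labels state it. As mice within a library are pooled, p-values measure the spread between libraries.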

Additional observations from a re-analysis of the deposited data

Results flagged for a closer look

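The same contrast went opposite ways between libraries, with both counting intervals off 0, for 5 gene and class pairs, and these differences between libraries were not tested, since each group is 1 library. Hey1 in TECs with Foxn1 against TECs without had a log2 ratio of 1.71 (95% interval 1.23 to 2.22) in Foxn1Lin female and of -1.60 (-2.27 to -0.99) in Foxn1Lin male mice. In Foxn1Lin male mice 10 TECs lay in the Psmb11 gate, where Hey1 was high, against 76 in Foxn1Lin female mice. Hey1 in TECs against ECs had 0.63 in wild type and -0.64 and -0.36 in Foxn1Lin female and male mice. Notch2 in TECs against FBs had -0.45 in Foxn1Lin female mice and 0.66 and 0.32 in Foxn1Lin male and wild-type mice. Notch1 in TECs against mural cells had 0.26 in wild type and -0.47 and -0.24 in Foxn1Lin female and male mice. Dll4 in FBs against mural cells had -1.42 in Foxn1Lin female mice, where its mural level rested on 19 UMIs and mural cells carried 277 CPM of EC markers, and at least 2.94 in wild type, where mural cells had 0 UMIs and the floor of 3 UMIs was used.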

How the results depend on the processing

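For the 91 fitted values of the 10 genes that were called or had an absolute log2 fold change of at least 0.5, 879 of 983 recomputed values kept direction and call, 87 lost a call, 14 gained one and 3 turned sign. The 3 were Dll4 in FBs (0.10 to -2.35 with 1 library left out), and with thinning Heyl in the arterial against the venous gate (2.46) and Jag1 in the Psmb11 gate (0.15).

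With DESeq2 the number of Notch genes called was 1 for arterial gate against other ECs, 1 for TECs with Foxn1 and 1 for the Myh11 gate. Without the library block it was 1 for venous gate against other ECs, 1 for the Psmb11 gate, 1 for the Cldn3 gate and 0 for the Myh11 gate. Over all genes 1265, 1245, 295 and 604 were called in the same 4 without the block, against 2712, 2562, 1142 and 1607 with it. With cells thinned the number of Notch genes called was 1, 0, 1 and 1 in these 4, 1 for TECs with Foxn1 and 3 for the Pi16 gate. Over all genes 1255, 889, 792 and 1035 were called in the 4 with cells thinned. With 1 library left out the number of Notch genes ran from 4 to 8 in TECs, 0 to 1 in arterial gate against other ECs, 0 to 5 in venous gate against other ECs, 1 to 4 in arterial against venous gate, 0 to 2 in the Cldn3 gate, 0 to 2 in TECs with Foxn1 and 0 to 1 in the Myh11 gate. Over all genes the venous gate against other ECs had 2788, 535 and 754 called without the Foxn1Lin female, Foxn1Lin male and wild-type library. Among all called genes, DESeq2 moved the share called higher from 9.21% (of 76 called) to 27.1% (of 424 called) in the arterial gate against other ECs, and from 0% (of 2 called) to 48.4% (of 889 called) in TECs with Foxn1. The causes were not tested. The 6 genes highest in ECs numbered 6 under every alternative of cells and gates, and the ratios between libraries for Jag1 in FBs and Dll4 in TECs stayed within their counting intervals (alternatives chosen after seeing the data). No paired analysis was possible because the labels give no replicate numbers, and the library is the block of the fits already. Thinning leaves few UMIs for genes such as Dll1, which limits those values.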
